A study of Mus musculus with 12 samples.

Results

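The second week of spheroid culture was described by comparing the arrays taken at day 14 with those taken at day 7. Samples were chosen by their titles, which name the preparation and the culture day: 4 arrays at day 7 and 4 at day 14, or 8 of the 12 arrays of the series. The remaining 4 were taken at day 1 and were used for the first-week change, day 7 minus day 1. All 12 arrays hold total RNA from spheroids of primary hepatocytes of C57BL/6 mice, an inbred laboratory strain. The 4 preparations, male preparations 1 and 2 and female preparations 1 and 2, were each a cryopreserved pool of hepatocytes from 3 animals of 1 sex. The pools aggregated on their own in plates to which cells do not attach, and no group received a drug or carried an altered gene. The labels give no age. Because each preparation was sampled at days 1, 7 and 14, a change was measured within a preparation, and n is 4 preparations throughout. Of 13081 probe sets, 11889 carried 1 gene symbol, and all of these were tested.

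Hepatocytes make most plasma proteins, clear amino acids and drugs, and keep this program under the control of liver transcription factors, hormones and contact with their neighbours. In flat culture they lose it within days and take on a spread, cytoskeleton-rich form, which spheroids are used to delay. They also answer inflammatory cytokines with the acute-phase response, in which serum amyloid A, orosomucoid and complement proteins are made in large amounts. A hepatocyte preparation also carries some endothelial, stellate and Kupffer cells of the liver sinusoid, whose transcripts are read on the same array.

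Values are the deposited log2 levels, so a difference of 1 is a 2-fold change, and a level of one probe set is not set against that of another. Array medians lay between 7.48 and 7.54. No level below 4.79 was the highest of its probe set, and a day mean under 4.79 is called near the background here. Across probe sets, arrays of the same preparation at days 7 and 14 correlated at 0.983 to 0.986, and those sharing sex and day at 0.984 to 0.99. The 4 values given in a row are those of male preparations 1 and 2 and female preparations 1 and 2, in that order. The hepatocyte label was borne out at both days by most of the markers chosen for it. Albumin (Alb) stood at 12.76, 12.78, 12.73 and 12.76 at day 7 and at 12.72, 12.75, 12.71 and 12.78 at day 14. Means at days 7 and 14 were 12.66 and 12.60 for Apoa1, 12.15 and 12.09 for Ttr, 11.30 and 11.22 for Hnf4a and 11.13 and 10.94 for Cps1. Cyp2e1, also one of these markers, had means of 5.60 and 4.41, the second near the background. The mean level of 18 stellate cell and fibroblast markers at day 14 was 4.22 and 5.13 in the male and 6.53 and 6.04 in the female preparations, so the day 14 array of male preparation 1 stood lowest.

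Between day 7 and day 14, 80 probe sets rose and 63 fell at a limma adjusted p under 0.05, which is 0.673% and 0.53% of those tested, or 1.2% together. Changes of at least 2-fold were made by 16 of the rises and 10 of the falls. All 143 went the same way in the 4 preparations. The 4 levels at day 14 lay wholly above or below the 4 at day 7 for 89 of the 143, against 5.21% of all probe sets. The 143 were picked by the same change on the same arrays, so the shared sign and the lack of overlap are not separate support. In all, 1746 probe sets had an unadjusted p under 0.05, where 594 would have it by chance. In the first week 689 probe sets, 5.8%, passed the same test. The number that passed depended on each preparation: it was 17 without male preparation 1, 2 without male preparation 2, 29 without female preparation 1 and 9 without female preparation 2, and 38 without the day 14 array of male preparation 1 alone. Without the preparation as a block it was 57, of which 49 were among the 143. Of 69 genes named by rule that passed, 48 passed in none of the 4 fits without 1 preparation, 11 in 1, 4 in 2 and 6 in 3, and 34 passed without the block. The arrays measured whole spheroids, so fewer cells of a type and less RNA per cell cannot be told apart in any of these values.

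**Figure D1:**
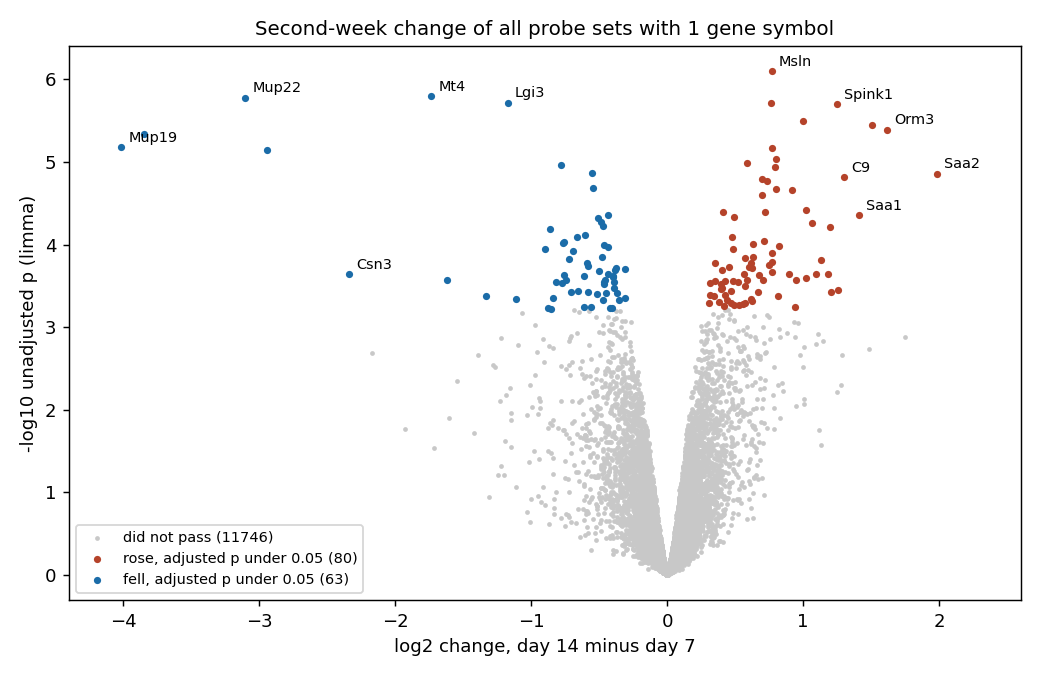
Each point is 1 of 11889 probe sets, with the log2 change from day 7 to day 14 on the x axis and -log10 of the unadjusted limma p on the y axis. The 80 rises reach 1.98 (Saa2), the 63 falls reach -4.02 (Mup19), and 11746 grey points did not pass.

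The 15 largest rises were mixed, with 4 acute-phase genes and the complement gene C9 among them, and the 4 largest falls were major urinary proteins. Saa2, Orm3, Saa1, C9 and Saa3 rose by 1.20 to 1.98 on the log2 scale, and Mup19, Mup9, Mup22 and Mup2 fell, with changes of -2.94 to -4.02. Dpysl3, a cytoskeletal gene, rose by 1.51, the third most, and rises of at least 2-fold also took in Slco3a1, Spink1, Cdh6, Dbn1 and Vcan. Albumin, with a change of -0.02 ± 0.05 (SE), and Hnf4a, the liver transcription factor, with -0.08 ± 0.05, did not pass (limma adjusted p = 0.901 and 0.525). Albumin stood near the highest value of the table, 12.84, where a change on an array can be understated.

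**Figure D2:**
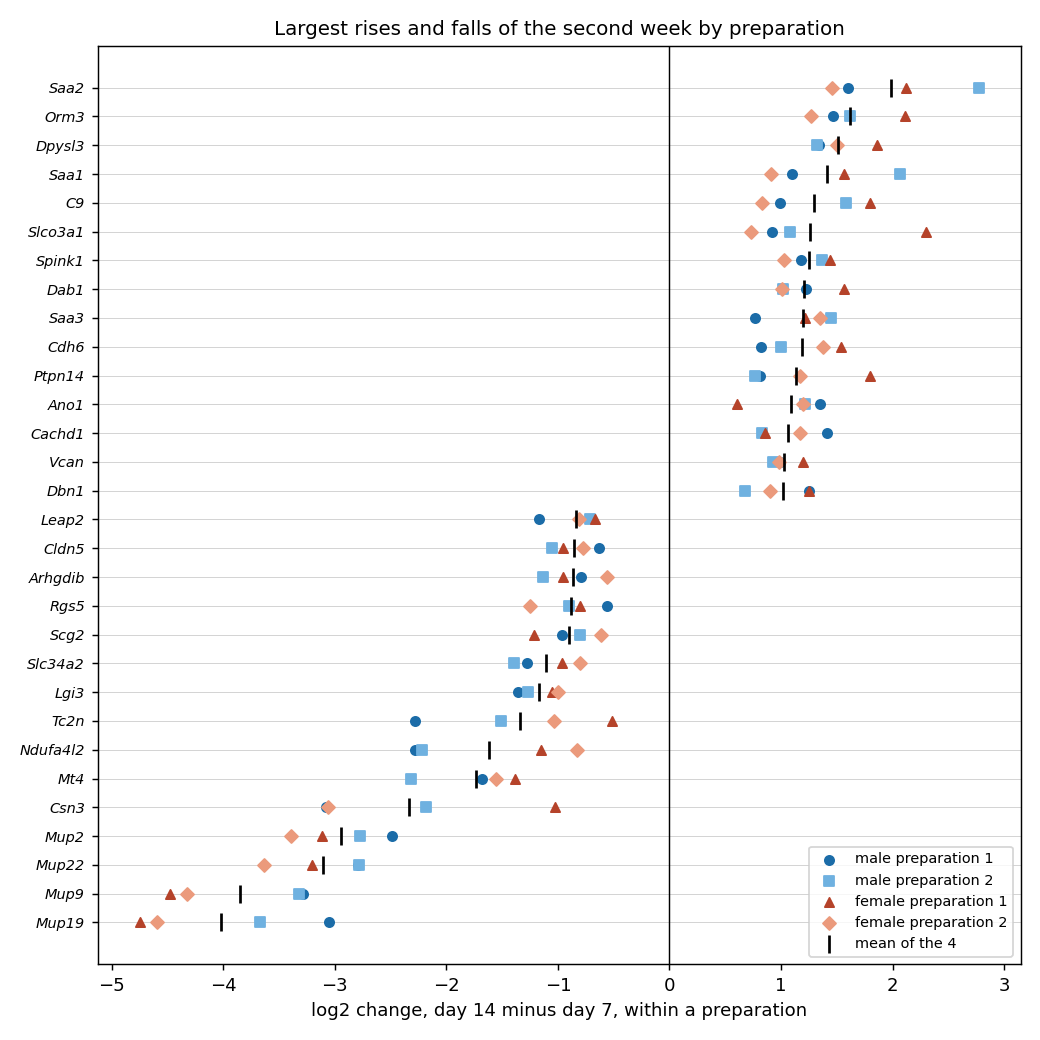
Points give the log2 change from day 7 to day 14 within each of the 4 preparations for the 15 largest rises and the 15 largest falls that passed, and the bar marks their mean. Every point of a rise lies above 0 and every point of a fall below 0, and the 4 Mup genes fell further in both female preparations than in either male one.

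The promoters of the 5 acute-phase and complement genes among the largest rises are shown because these genes rose together. Each is the 250 bases before the start of the gene in RefSeq's GRCm38.p6 annotation, written 5′ to 3′ on the gene's own strand. Capitals mark TTGCNNAA or its reverse complement, an 8-base motif of the C/EBP type, the family of factors known for driving acute-phase genes in liver. The genes and the motifs were chosen after their values were seen.
Saa1, minus strand, chr7:46742981-46743230: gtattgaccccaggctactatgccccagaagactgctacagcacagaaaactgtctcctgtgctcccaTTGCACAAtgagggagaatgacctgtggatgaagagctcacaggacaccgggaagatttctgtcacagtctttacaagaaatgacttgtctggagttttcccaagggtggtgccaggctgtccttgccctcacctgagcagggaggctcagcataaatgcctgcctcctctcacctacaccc
Saa2, plus strand, chr7:46751583-46751832: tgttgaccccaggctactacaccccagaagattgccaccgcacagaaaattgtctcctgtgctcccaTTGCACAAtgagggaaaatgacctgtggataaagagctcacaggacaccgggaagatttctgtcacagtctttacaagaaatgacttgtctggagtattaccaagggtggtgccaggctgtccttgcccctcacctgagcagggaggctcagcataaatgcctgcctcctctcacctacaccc
Saa3, minus strand, chr7:46715677-46715926: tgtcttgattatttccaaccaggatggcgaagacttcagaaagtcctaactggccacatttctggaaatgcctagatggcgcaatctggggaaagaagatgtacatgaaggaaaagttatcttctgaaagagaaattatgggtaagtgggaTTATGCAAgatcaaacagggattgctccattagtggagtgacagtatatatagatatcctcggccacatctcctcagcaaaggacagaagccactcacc
Orm3, plus strand, chr4:63355908-63356157: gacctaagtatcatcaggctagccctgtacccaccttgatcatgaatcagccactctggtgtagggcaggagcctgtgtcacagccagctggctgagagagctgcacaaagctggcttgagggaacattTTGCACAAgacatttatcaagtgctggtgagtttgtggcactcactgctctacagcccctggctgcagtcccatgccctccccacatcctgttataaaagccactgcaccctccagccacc
C9, plus strand, chr15:6445096-6445345: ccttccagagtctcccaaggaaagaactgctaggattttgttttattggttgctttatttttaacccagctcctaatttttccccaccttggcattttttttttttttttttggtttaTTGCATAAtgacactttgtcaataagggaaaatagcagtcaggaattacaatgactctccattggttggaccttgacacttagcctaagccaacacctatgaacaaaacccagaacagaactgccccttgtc
The motif, searched on both strands, was found once in each of the 5 windows and in 9.56% of all 32851 promoter windows of the same length. Its first base lay 182 and 183 bases before the start of Saa1 and Saa2, whose windows are nearly alike, 99 before Saa3, 121 before Orm3 and 132 before C9. GGANTTTCC, a motif of the NF-kappa-B type, and TTCNNNGAA, of the STAT type, were in 0 of the 5 windows and in 1.07% and 7.02% of all. A match is a run of letters, not a measured binding site.

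Serum amyloid A proteins are small apolipoproteins that hepatocytes secrete in the acute phase. Saa2 stood at 9.44, 8.76, 8.11 and 9.93 at day 7 and at 11.04, 11.53, 10.22 and 11.39 at day 14. Every day 14 array lay above every day 7 array, and the rise was 1.98 ± 0.22 (SE, 3.96-fold, limma adjusted p = 0.00867). Saa1 went from 9.65, 8.98, 8.69 and 10.08 to 10.76, 11.04, 10.26 and 10.99, a rise of 1.41 ± 0.18 (limma adjusted p = 0.017). The lowest day 14 level, in female preparation 1, lay just above the highest day 7 level, in female preparation 2. Saa3, which macrophages and fat cells also make, went from 8.62, 8.21, 7.42 and 8.49 to 9.39, 9.66, 8.63 and 9.84 (1.20 ± 0.16, limma adjusted p = 0.0196), with female preparation 1 lowest at both days. Saa4, the constitutive member of the family, rose by 0.40 ± 0.07 (limma adjusted p = 0.0388). Saa1 and Saa2 are near-identical genes, and a probe set of one may read the other.

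Orm3, one of the orosomucoid genes whose products carry lipophilic compounds in plasma, stood at 7.18, 7.04, 6.35 and 7.35 at day 7. At day 14 its levels were 8.64, 8.66, 8.46 and 8.62, so the 4 preparations had come within a narrow range well above all day 7 arrays. The rise was 1.62 ± 0.16 (SE, limma adjusted p = 0.00537), after a first-week change of -0.26 ± 0.16. Its neighbours Orm2, at 0.70 ± 0.14, and Orm1, at 0.24 ± 0.06, did not pass (limma adjusted p = 0.0649 and 0.111), though the levels of Orm2 did not overlap between the days. Orm1 and Orm2 were named after their values were seen. C9, which forms the pore of the complement attack complex, went from 8.71, 7.99, 7.19 and 8.42 to 9.70, 9.57, 8.98 and 9.25 (1.30 ± 0.15, limma adjusted p = 0.00907), again without overlap.

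The first-week changes of Saa2, Saa1, Saa3 and C9 were 0.48, 0.52, 0.46 and 0.35, and none passed (limma adjusted p = 0.155 to 0.272). First and second week share the day 7 arrays, so the weekly changes are not independent. With 1 preparation left out at a time, the rise of Saa2 lay between 1.72 and 2.16 with a limma adjusted p of 0.0534 to 0.0669, so it passed in none of the 4 fits. Saa1, Saa3 and C9 likewise passed in none of these 4 fits, and Orm3 did not pass without male preparation 2 (1.62, limma adjusted p = 0.0763) and passed in the other 3.

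Of 31 measured acute-phase genes, 5 rose and 0 fell, and the median change was 0.07. Over all probe sets 0.673% rose, 0.53% fell, 52.8% lay above 0 and the median was 0.01, and the counts of the other lists stand against the same shares. Without the replicate block 2 of the 31 rose, and without male preparation 1, male preparation 2, female preparation 1 and female preparation 2 in turn 1, 0, 1 and 1 did. Over all 11889 probe sets the same fits gave 36 rises without the block and 9, 1, 17 and 5 without each preparation. Beside the 4 serum amyloid genes and Orm3, A2m stood at 7.94, 7.56, 4.79 and 4.54 at day 7 and at 8.85, 8.31, 6.32 and 5.80 at day 14. A2m, a broad protease inhibitor, had fallen by 2.14 in the first week (limma adjusted p = 0.00317), and its second-week change of 1.11 ± 0.23 did not pass (0.0704). Its levels were higher in the male preparations at both days. Haptoglobin (Hp) and lipocalin 2 (Lcn2) changed by 0.02 and 0.07, but stood between 12.50 and 12.79 on all 8 arrays, near the highest value of the table as albumin did. Cd14, the lipopolysaccharide co-receptor, was the 1 gene of 28 chemokine and NF-kappa-B genes that rose. In that list 20 genes lay above 0 and 8 below, with a median change of 0.19.

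The Kupffer cell and macrophage markers, which could also carry inflammatory signal, gave a mean level over 20 genes of 5.88, 5.71, 6.37 and 5.22 at day 7 and 5.96, 5.49, 6.98 and 5.13 at day 14. Their median change was 0.23, -0.18, 0.56 and -0.14 in the 4 preparations, up in 2 and down in 2. Cd14, also a hepatocyte gene, was the 1 marker that rose. In the list 13 markers lay above 0 and 7 below, with a median change of 0.11. Clec4f and Vsig4, which define Kupffer cells, changed by -0.57 and 0.01, and the macrophage genes Cd5l and Marco by 0.56 and 0.47. None of these passed, and Cd5l and Marco were named after their values were seen. Marco changed by -0.64, -0.12, 1.43 and 1.21 in the 4 preparations, down in both male and up in both female ones. Clec4f had a day 14 mean of 4.56, near the background, and both day means of 6 of the 20 markers were near it. The part of Kupffer cells and macrophages in the acute-phase rise was not tested.

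Major urinary proteins are pheromone carriers made by the liver under growth hormone, at higher levels in males. Mup19 stood at 11.32, 11.01, 9.73 and 10.67 at day 7 and at 8.27, 7.34, 4.97 and 6.08 at day 14. The fall was 4.02 ± 0.41 on the log2 scale, with a fold of 16.2 (SE, limma adjusted p = 0.00645). Mup9 went from 10.77, 10.47, 8.98 and 9.94 to 7.48, 7.16, 4.51 and 5.61, and every day 14 array lay below every day 7 array. Mup22 and Mup2 changed by -3.11 ± 0.27 and -2.94 ± 0.30 (limma adjusted p = 0.00398 and 0.00645), also without overlap. These genes had already moved in the first week, by -1.32 (Mup19), -1.60 (Mup9), -1.42 (Mup22) and -1.51 (Mup2). That first-week change passed for Mup9, Mup22 and Mup2 and not for Mup19 (limma adjusted p = 0.0457, 0.022, 0.0275 and 0.107). All 4 passed without male preparation 1 and without female preparation 1, and none passed without male preparation 2 or without female preparation 2, with changes of -2.79 or lower in each of the 4 fits.

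Other members of the family did not pass. Mup3, Mup20, Mup21 and Mup5, named after their values were seen, changed by -0.06, 0.12, 0.01 and -0.19 at limma adjusted p of 0.651 to 0.981. Mup20, which encodes the male pheromone darcin, stood at 12.10, 12.07, 11.76 and 11.98 at day 7 and at 12.01, 12.22, 12.01 and 12.15 at day 14, close to the top of the range. Mup genes are near-identical copies, so which of them each probe set reads is uncertain. Of 39 measured genes of the growth hormone axis and sex-biased liver expression, the 4 Mup genes fell and 0 rose, and the median change was -0.18. The growth hormone receptor (Ghr) changed by -0.08 ± 0.06, and Igf1, its main liver target, stood at 9.97, 10.03, 9.88 and 10.03 at day 7 and at 9.53, 9.80, 9.55 and 8.63 at day 14. All 4 day 14 levels of Igf1 lay below those of day 7, but the change of -0.60 ± 0.20 did not pass (limma adjusted p = 0.202).

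Csn3, which encodes kappa-casein, followed the Mup genes in size. It went from 9.32, 9.0, 8.09 and 7.68 to 6.23, 6.82, 7.06 and 4.62, a fall of 2.34 ± 0.38 (SE, limma adjusted p = 0.0346). The preparations differed: the change in female preparation 1 was the smallest, and without 1 preparation at a time Csn3 passed in none of 4 fits (adjusted p = 0.0546 to 0.185). Mt4, a metallothionein, went from 9.48, 9.96, 10.11 and 9.20 to 7.80, 7.64, 8.72 and 7.64, a fall of 1.74 ± 0.15 (limma adjusted p = 0.00398) that was lost only without female preparation 2 (0.0502). It had fallen by 0.85 in the first week too (limma adjusted p = 0.018). Ndufa4l2, Tc2n and Slc34a2 also changed by at least 2-fold, by -1.62, -1.34 and -1.11 (limma adjusted p = 0.0346, 0.0413 and 0.0436). Ndufa4l2 and Tc2n changed by -2.25 and -1.90 in males and by -0.99 and -0.78 in females. That sex difference did not pass (limma adjusted p = 0.735 and 0.904), and both genes passed in none of the 4 fits without 1 preparation.

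The question of which changes begin only in the second week was put as 4 conditions. The second-week change passes; the first-week change does not pass and is under 0.25 in size; and the 2 weekly changes differ, tested over all probe sets. No probe set met all 4 (0% of 11889), because the difference between the weeks passed for none (limma, smallest adjusted p = 0.0928). That test had 1371 probe sets at an unadjusted p under 0.05 and a median standard error of 0.16, against 0.09 for the second-week change. With a trended and robust estimate of the spread in limma, 16 met all 4 conditions, 12 falls and 4 rises. Of the 143 that passed in the second week, 82 did not pass in the first week. Leaving out the test of the difference, 54 probe sets (0.454%) passed in the second week after little first-week change, 27 up and 27 down. These 54 are candidates, not genes shown to change only in the second week, and the number was 9 without the day 14 array of male preparation 1 and 2, 0, 6 and 2 without each preparation in turn. The 10 largest in each direction, and those named below from the 16, were named after their values were seen.

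**Figure D3:**
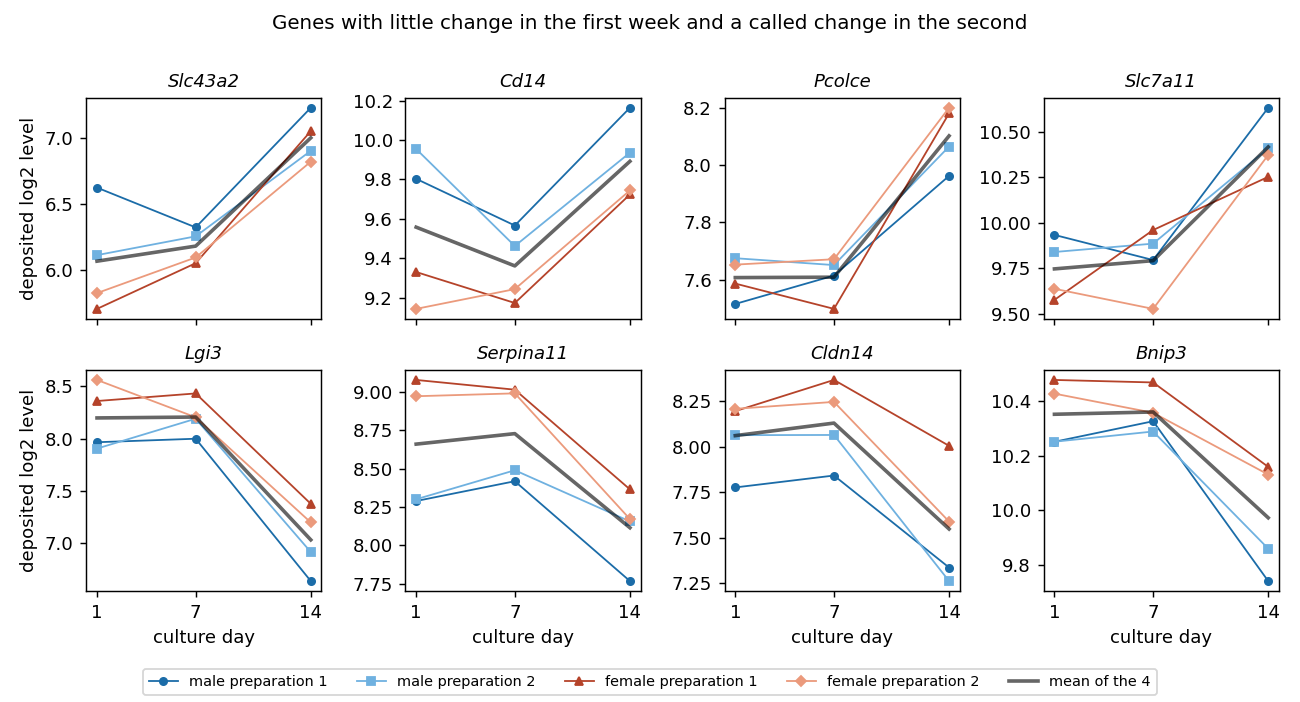
Each panel gives the deposited log2 level of 1 gene against culture day for the 4 preparations (thin lines) and their mean (thick line); axes differ between panels and do not start at 0. The first-week change is under 0.25 in size for each, and the second-week change runs from 0.82 (Slc43a2) to -1.17 (Lgi3).

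Lgi3, which encodes a secreted leucine-rich repeat protein, gave the largest fall of this kind. It stood at 7.96, 7.90, 8.36 and 8.56 at day 1, at 8.0, 8.19, 8.43 and 8.20 at day 7, and at 6.64, 6.92, 7.38 and 7.20 at day 14. Levels of days 1 and 7 overlapped and all day 14 levels lay below them, with weekly changes of 0.01 ± 0.10 and -1.17 ± 0.10 (limma adjusted p = 0.976 and 0.00398). The difference of the weeks, -1.18, had an adjusted p of 0.0928 in limma and of 0.00129 with the trended and robust spread. With preparations left out one at a time, the second-week call of Lgi3 was lost only without male preparation 2 (-1.14, limma adjusted p = 0.0655). Leap2, a liver peptide that opposes ghrelin at its receptor, changed by 0.13 and then fell by 0.84 ± 0.15 (limma adjusted p = 0.0433), with overlap between the days.

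Several further candidate falls encode liver enzymes, transporters and secreted proteins. Serpina11, a liver serpin, went from 8.42, 8.49, 9.02 and 8.99 at day 7 to 7.77, 8.16, 8.36 and 8.17, all below the day 7 levels (limma adjusted p = 0.0346). Abat, which breaks down GABA, fell by 0.51 ± 0.07 after a first-week change of 0.23, and Cth, the cystathionine-cleaving enzyme of cysteine synthesis, fell by 0.48 ± 0.06 after -0.04 (limma adjusted p = 0.0173 and 0.0196). Amy1, an amylase, was among the tightest, at 10.13, 10.30, 10.35 and 10.36 and then 9.77, 9.70, 9.75 and 9.71 (-0.55 ± 0.07, limma adjusted p = 0.0103). Prodh, of proline breakdown, Slc6a12, a betaine carrier, Atp8b1, a flippase of the bile canaliculus, and Apoc3, an inhibitor of triglyceride clearance, fell by 0.38 to 0.47 after first-week changes of -0.12 to 0.14. Groups did not overlap for Prodh, Slc6a12 and Atp8b1 and did for Apoc3. Bnip3, a mitophagy receptor, went from 10.33, 10.29, 10.47 and 10.36 to 9.74, 9.86, 10.16 and 10.13 (limma adjusted p = 0.0346), all below day 7. Cldn14, a tight junction claudin, fell by 0.58 ± 0.09 with overlap, the female levels standing above the male ones at both days.

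Candidates also included mitosis genes and an endothelial gene. Mad2l1, of the spindle checkpoint, went from 7.54, 7.31, 7.80 and 7.58 to 6.99, 6.90, 7.22 and 7.16 after a first-week change of 0.03, and the days did not overlap (-0.49 ± 0.07, limma adjusted p = 0.0185). Ndc80, of the kinetochore, fell by 0.56 ± 0.10 from levels of 5.07 to 5.55, with a day 14 mean near the background. Gpihbp1, which anchors lipoprotein lipase on endothelium, went from 5.21, 5.39, 5.42 and 5.62 to 4.87, 4.64, 4.77 and 4.93 (limma adjusted p = 0.0487). Lhpp, a histidine phosphatase, fell by 0.67 ± 0.09 with overlap between the days.

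Candidate rises held transporters, actin-linked genes and matrix genes. Ppp1r26 gave the largest, at 3.91, 4.01, 3.49 and 3.17 at day 7 and 4.32, 4.84, 4.46 and 4.54 at day 14 (0.90 ± 0.15, limma adjusted p = 0.0346), near the background at both days. Slc43a2, an amino acid carrier, went from 6.32, 6.26, 6.05 and 6.10 to 7.23, 6.90, 7.05 and 6.82, above all day 7 arrays, a rise of 0.82 ± 0.12 after 0.11 (limma adjusted p = 0.026). Plekho1 and Fam171a1 rose by 0.73 ± 0.09 and 0.80 ± 0.10 (limma adjusted p = 0.00916 and 0.0103). Afap1, an actin filament adaptor, Epdr1 and Ccnjl, the last near the background at day 7, rose by 0.77 to 0.81. Slc7a11, the cystine importer that feeds glutathione synthesis, went from 9.79, 9.88, 9.96 and 9.53 to 10.63, 10.41, 10.25 and 10.37, without overlap (0.62 ± 0.10, limma adjusted p = 0.0338). Cd36, which takes up fatty acids, rose by 0.60 ± 0.10 after 0.24, just inside the 0.25 limit.

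Cd14 went from 9.57, 9.46, 9.17 and 9.24 to 10.16, 9.94, 9.72 and 9.74, each day 14 array above all those of day 7, a rise of 0.53 ± 0.10 after -0.20 (limma adjusted p = 0.0473). Pcolce, which speeds the trimming of procollagen, was level over the first week and went from 7.61, 7.65, 7.50 and 7.67 to 7.96, 8.06, 8.18 and 8.20 without overlap (0.49 ± 0.07, limma adjusted p = 0.0173). Ctps, the enzyme that makes CTP, rose by 0.41 ± 0.05 after -0.08 (limma adjusted p = 0.0167). Candidates with overlapping days were Nid1, a basement membrane linker, Vcl, vinculin of cell-matrix contacts, and Flna, an actin cross-linker, which rose by 0.40, 0.49 and 0.35 after 0.09, 0.07 and 0.14.

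Just outside the first-week limit of 0.25 stood Cd44, at 0.26, and Orm3, at -0.26, and just inside it stood Saa4, at 0.25, and Cd36, at 0.24. With the trended and robust spread, the 16 that met every condition were Lgi3, Serpina11, Cldn14, Cth, Apoc3, Uox, Slc6a12, C8b, Bnip3, Lpin1, Wfdc21 and Asns among the falls and Cd14, Ctps, Tes and Srxn1 among the rises. Of these, 9 were also among the 54. Uox (urate oxidase), C8b (a terminal complement subunit), Lpin1 (a phosphatidate phosphatase) and Asns (asparagine synthetase) changed by -0.44, -0.43, -0.34 and -0.26 and passed only with that spread.

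Genes of the cytoskeleton and of dedifferentiation were another group with several rises: 6 of 50 measured rose, 0 fell and 37 lay above 0, with a median change of 0.08. Over all probe sets 0.673% rose and 52.8% lay above 0, with a median of 0.01. Without the replicate block 3 of the 50 rose, and without male preparation 1, male preparation 2, female preparation 1 and female preparation 2 in turn 2, 1, 1 and 0 did. The same fits gave 36 rises over all 11889 probe sets without the block and 9, 1, 17 and 5 without each preparation. Dpysl3, a regulator of microtubules and cell shape, went from 8.27, 7.95, 6.56 and 7.25 to 9.61, 9.27, 8.42 and 8.76. All day 14 levels lay above all of day 7, and the rise was 1.51 ± 0.14 (SE, limma adjusted p = 0.00531). With preparations left out one at a time it missed only without female preparation 2 (0.0697). It followed a first-week rise of 1.90 (limma adjusted p = 0.00181). The tubulins Tubb2b and Tuba1a rose by 0.75 ± 0.12 and 0.59 ± 0.10, with male levels above female levels at both days (limma adjusted p = 0.0338 and 0.0346). Krt23, a keratin of stressed epithelium, rose by 0.67 ± 0.12, and Cd44, the hyaluronan receptor, by 0.42 ± 0.08 (limma adjusted p = 0.0398 and 0.0413). Krt23 and Tuba1a had already risen in the first week, by 1.87 and 0.42 (limma adjusted p = 0.00147 and 0.0457).

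Outside that list, Dbn1, the actin-binding protein drebrin, rose by 1.02 ± 0.13 (limma adjusted p = 0.0165). Cdh6, a cadherin of developing epithelia, went from 7.82, 7.55, 6.33 and 6.35 to 8.65, 8.55, 7.86 and 7.73, and the female levels of day 14 reached the male levels of day 7 (1.18 ± 0.19, limma adjusted p = 0.0346). Of 27 targets of YAP and TEAD, the growth-control factors that sense cell shape, 3 rose and 0 fell (0.673% and 0.53% of all probe sets), with a median change of 0.06. Ptpn14, a phosphatase that binds YAP, went from 6.33, 6.04, 5.21 and 5.70 to 7.14, 6.80, 7.01 and 6.87, all above day 7. Its rise of 1.14 ± 0.18 was largest in female preparation 1 (limma adjusted p = 0.0322). Tgfb2, a growth factor of the TGF-beta family, went from 6.16, 6.09, 5.27 and 5.47 to 7.14, 7.00, 6.36 and 6.16, and F3, which encodes tissue factor, rose by 0.63 ± 0.12 (limma adjusted p = 0.0103 and 0.0445). F3 had already risen by 0.50 in the first week (limma adjusted p = 0.0419).

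The 15 largest rises also held Spink1, Slco3a1, Ano1, Dab1 and Cachd1. Spink1, a secreted trypsin inhibitor, went from 7.31, 6.57, 6.19 and 6.49 to 8.49, 7.93, 7.63 and 7.51, without overlap (1.25 ± 0.11, limma adjusted p = 0.00398). Slco3a1, an organic anion carrier, rose by 1.26 ± 0.22, and by far the most in female preparation 1, from 5.22 to 7.52. Ano1, a calcium-activated chloride channel, went from 6.69, 6.90, 6.71 and 6.24 to 8.05, 8.12, 7.31 and 7.44, without overlap (limma adjusted p = 0.0346). Dab1, an adaptor in reelin signalling, and Cachd1 rose by 1.20 ± 0.21 and 1.06 ± 0.14, and Gpr137b, a lysosomal membrane protein outside the 15 largest, by 1.00 ± 0.09 (limma adjusted p = 0.0398, 0.0185 and 0.00531). Msln, the mesothelial surface protein, had the smallest unadjusted p of all, with day 1 and day 7 means near the background, so the size of its rise is uncertain. It went from 4.63, 4.70, 5.10 and 4.66 to 5.36, 5.54, 5.96 and 5.31, a rise of 0.77 ± 0.06 after 0.79 in the first week (limma adjusted p = 0.00398 and 0.00181). The other mesothelial markers measured, Wt1 and Krt19, changed by -0.04 and 0.23 and did not pass. With preparations left out one at a time, Spink1 and Msln missed only without male preparation 2 (limma adjusted p = 0.0669 and 0.0655).

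Matrix genes were divided. Vcan, the proteoglycan versican, which was in none of the lists, went from 6.72, 6.63, 6.20 and 6.20 to 7.71, 7.56, 7.40 and 7.18, without overlap (1.02 ± 0.17, limma adjusted p = 0.0346). Of 45 genes of extracellular matrix and its remodelling, Pcolce and Nid1 rose, 0 fell, 25 lay above 0 and 20 below, with a median of 0.07. Timp4, a protease inhibitor, changed by 1.48 ± 0.33 from 4.94, 4.99, 5.82 and 5.04 to 6.03, 6.56, 6.93 and 7.22, without overlap, but did not pass (limma adjusted p = 0.0862). The fibrillar collagen Col3a1 stood at 5.07, 5.80, 6.62 and 6.36 and then at 2.73, 4.74, 7.15 and 5.90, lower in 3 preparations and higher in female preparation 1 (limma adjusted p = 0.572). Timp4 and Col3a1 were named after their values were seen.

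Lipid genes moved in several ways. Of 36 PPAR alpha targets and other genes that burn fatty acids, 2 rose, 1 fell and 28 lay above 0, against 0.673%, 0.53% and 52.8% of all probe sets, and the median was 0.07. Acot1 and Acot2, thioesterases that free fatty acids from coenzyme A, rose by 0.71 ± 0.12 and 0.52 ± 0.09 without overlap (limma adjusted p = 0.0346 for both), after first-week rises of 1.03 and 0.74. They are near-identical neighbours, and a probe set of one may read the other. Cidea, a lipid droplet protein, fell by 0.47 ± 0.09, from 6.03, 6.01, 6.53 and 6.10 to 5.74, 5.65, 5.83 and 5.54 (limma adjusted p = 0.0441). Its first-week change of -0.38 also passed (limma adjusted p = 0.04). Lpl, lipoprotein lipase, named after its values were seen, rose by 0.57 ± 0.10 (limma adjusted p = 0.0367), while its endothelial anchor Gpihbp1 fell. Mlxipl, the glucose-sensing factor ChREBP, fell from 9.61, 9.69, 10.03 and 9.88 to 9.21, 9.26, 9.56 and 9.33, without overlap, and was the 1 of 21 genes of fatty acid and triglyceride synthesis that passed (-0.46 ± 0.08, limma adjusted p = 0.0346). The first-week change of Mlxipl, -0.35, passed too (limma adjusted p = 0.0385).

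All 19 measured genes of cholesterol synthesis lay below 0, with a median of -0.22, yet none passed. Of these, 12 had an unadjusted p under 0.05, and 8 passed with the trended and robust spread in limma. Over all 11889 probe sets these counts were 1746 and 434. Idi1, an isomerase of the mevalonate pathway, stood at 9.62, 9.63, 9.63 and 9.91 at day 7 and at 8.96, 9.43, 9.34 and 9.41 at day 14. The days did not overlap, and the change was -0.41 ± 0.09 after 0.01 in the first week (limma adjusted p = 0.0775). Stard4, Insig1, Sqle and Hmgcs1, of sterol transport, sterol sensing and synthesis, changed by -0.37, -0.34, -0.23 and -0.18 and did not pass. The median of the list was -0.36, -0.19, -0.09 and -0.24 in the 4 preparations, and its first-week median was 0.07.

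Of 29 targets of NRF2, the factor that drives antioxidant and detoxifying genes, 2 rose, 0 fell and 25 lay above 0, against 0.673%, 0.53% and 52.8% of all probe sets, and the median was 0.10. The rises were Slc7a11, described above, and Cbr3, a carbonyl reductase, which went from 6.44, 6.09, 6.48 and 6.43 to 7.18, 7.11, 7.04 and 6.82 without overlap (0.67 ± 0.11, limma adjusted p = 0.0346). Cbr3 had also risen by 0.50 in the first week (limma adjusted p = 0.0383). Srxn1, sulfiredoxin, changed by 0.30 ± 0.06 after -0.09 and did not pass (limma adjusted p = 0.0617).

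Cell cycle genes stood lower at day 14: 37 of 41 in the list lay below 0, with a median of -0.30, but 1 passed. The mitosis genes Mad2l1 and Ndc80, described above, also passed but were not in this list. Rrm2, a subunit of the enzyme that makes deoxynucleotides, went from 8.58, 8.38, 9.51 and 9.43 to 7.70, 7.65, 8.91 and 9.02, higher in the female preparations at both days (-0.65 ± 0.11, limma adjusted p = 0.0398). Mki67, the proliferation marker, stood at 6.91, 6.27, 7.50 and 7.26 and then at 6.10, 5.70, 6.84 and 7.29, lower in 3 preparations and level in female preparation 2 (limma adjusted p = 0.462). The median of the list was -0.43, -0.33, -0.21 and -0.02 in the 4 preparations. In the first week the list's median was -0.20, and 1 member rose and 0 fell.

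Hepatocyte programs mostly lay slightly below 0. Of 32 genes of the urea cycle and amino acid breakdown, 2 fell (Cth and Prodh) and 0 rose, with a median of -0.11, and of 56 genes of plasma proteins, coagulation and complement, 3 fell and 1 rose (C9), with a median of -0.03. F11, coagulation factor XI, went from 8.70, 8.83, 9.42 and 8.92 to 7.92, 8.23, 8.84 and 7.86 (-0.76 ± 0.11, limma adjusted p = 0.0255), and Apom, an apolipoprotein, fell by 0.52 ± 0.09 after 0.35. The first-week change of F11, -0.62, passed as well (limma adjusted p = 0.0188). Gulo, the last enzyme of vitamin C synthesis, fell by 0.69 ± 0.10 after 0.32 and was the 1 pericentral gene of 19 that passed (limma adjusted p = 0.0278). None of 17 genes of gluconeogenesis and glycogen and none of 32 drug-metabolizing cytochromes P450 passed, with medians of -0.22 and -0.13. In these lists 7 and 6 had an unadjusted p under 0.05, against 1746 of all 11889 probe sets.

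Cyp3a11, a main drug oxidase, stood at 7.56, 8.59, 10.24 and 10.92 at day 7 and at 5.52, 6.98, 9.90 and 10.17 at day 14. The male preparations were lower than the female ones at both days and changed by more, and the change of -1.19 ± 0.33 did not pass (limma adjusted p = 0.145). Cyp2e1, an ethanol oxidase of pericentral hepatocytes, gave -1.19 ± 0.43 with levels of 2.87 to 7.94 and a day 14 mean near the background (limma adjusted p = 0.253). Cyp1a2, Cps1 (the entry enzyme of the urea cycle), Slc10a1 (the main bile acid importer), Abcb11 (the bile salt exporter) and Abcc2 (a conjugate exporter) changed by 0.10, -0.19, -0.49, 0.15 and 0.09, and none passed (limma adjusted p = 0.227 to 0.808). Of 37 respiratory chain, 38 cytosolic ribosomal protein and 30 proteasome genes 0 passed and 0 had an unadjusted p under 0.05, and the medians were -0.01, -0.01 and 0.01.

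**Figure D4:**
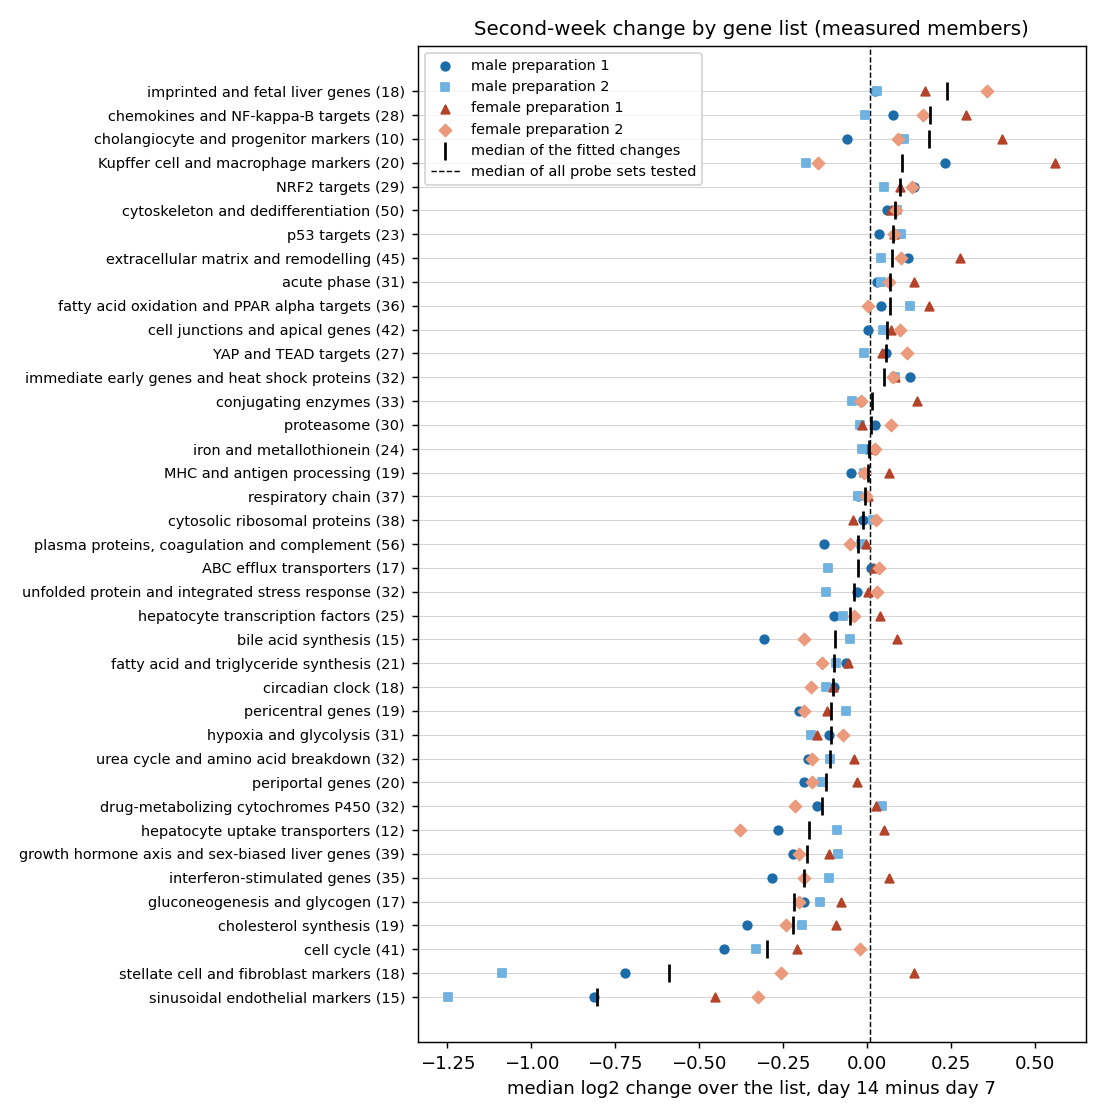
Points give the median log2 change from day 7 to day 14 of each gene list with at least 10 measured members in each of the 4 preparations, the bar gives the median of the fitted changes and the dashed line the median of all probe sets, 0.01; the number of measured members stands beside each name. Of the lists drawn, sinusoidal endothelial and stellate markers lie lowest, at -0.80 and -0.59, and differ most between preparations; lists with fewer members, such as the 1 lymphocyte marker at -2.17, are not drawn.

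Sinusoidal endothelial markers had the lowest median of the lists drawn. Of 15 measured 0 passed and 14 lay below 0, with a median of -0.80 against 0.01 over all probe sets. An unadjusted p under 0.05 was found for 10 of the 15, against 1746 of all 11889 probe sets. The mean level of the markers was 5.12, 6.09, 6.22 and 5.76 at day 7 and 4.30, 4.71, 5.81 and 5.43 at day 14. Both day means of 5 markers were near the background. Lyve1, the hyaluronan receptor of sinusoidal endothelium, stood at 5.82, 7.43, 8.20 and 7.19 and then at 4.98, 5.31, 7.26 and 6.05, lower in all 4 preparations with overlap (-1.26 ± 0.31, limma adjusted p = 0.107). Kdr, the VEGF receptor, and Clec4g, a sinusoidal lectin, changed by -1.10 and -1.22 and did not pass (limma adjusted p = 0.081 and 0.0725). Flt1, another VEGF receptor, changed by 0.31. Cldn5, the tight junction claudin of endothelium, was listed with the junction genes and fell from 4.24, 4.76, 5.05 and 4.63 to 3.61, 3.71, 4.10 and 3.86, near the background (limma adjusted p = 0.0495).

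Stellate cell and fibroblast markers were split by preparation, with median changes of -0.72 and -1.09 in the male and 0.14 and -0.26 in the female preparations. Of 18 measured 1 fell, and the median was -0.59. That 1 was Rgs5, a pericyte gene, from 4.58, 5.18, 6.06 and 5.55 to 4.02, 4.28, 5.26 and 4.29 (-0.88 ± 0.17, limma adjusted p = 0.0495), near the background at day 14. Its first-week change of -0.89 also passed (limma adjusted p = 0.0216). Acta2, smooth muscle actin, stood at 6.91, 7.41, 6.38 and 6.62 and then at 3.11, 5.69, 7.71 and 6.78, down in both male and up in both female preparations (limma adjusted p = 0.619). Without female preparation 1 the list's median was -0.88, and without the day 14 array of male preparation 1 it was -0.35. Klrb1b, a natural killer cell receptor and the 1 lymphocyte marker measured, changed by -2.17 ± 0.50 from 7.05, 6.68, 8.01 and 7.70 to 5.15, 5.46, 5.72 and 4.43, without overlap, and did not pass (limma adjusted p = 0.0905). Arhgdib, a gene abundant in blood and endothelial cells, fell by 0.86 ± 0.12 after -1.09 (limma adjusted p = 0.0201 and 0.00317). The part of these other cell types in the falls of the second week was not tested.

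Some genes went up in the first week and down in the second. Slc10a2, the apical bile acid importer, stood at 9.05, 9.01, 9.05 and 8.81 at day 1, at 9.51, 9.47, 9.33 and 9.26 at day 7 and at 8.61, 8.85, 8.87 and 8.82 at day 14. Its changes of 0.41 and -0.60 both passed (limma adjusted p = 0.0304 and 0.0233). Abca8a, a lipid transporter, changed by 0.75 and then -0.76, Ank2, an ankyrin near the background, by 0.83 and -0.82, and Usp2, a deubiquitinase under circadian control, by 0.75 and -0.50, each passing in both weeks. Gramd1b, of cholesterol transport, and Chst12, of chondroitin sulfation, ran the other way, with -0.36 and 0.49 and with -0.33 and 0.42. These 6 were named after their values were seen, and both weekly changes use the same day 7 arrays.

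The second-week change was also compared between the sexes, with 2 preparations of each. The male minus female difference passed for 0 of 11889 probe sets (limma, smallest adjusted p = 0.453), and 575 had an unadjusted p under 0.05. The median standard error of that difference was 0.18. With the trended and robust spread 1 passed: Gdf10, a growth factor of the TGF-beta superfamily, went from 5.27 and 5.95 to 2.71 and 3.92 in the male and from 6.66 and 6.41 to 6.47 and 7.20 in the female preparations. Its change was -2.30 in males and 0.30 in females (adjusted p = 0.013 with that spread, 0.735 without). Both male day 14 levels lay under 4.79, so the size of the male fall is uncertain. The larger fall of Mup19 in females, -4.67 against -3.36 in males, did not pass (limma adjusted p = 0.955).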

How the data were processed

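Expression arrays were run on biotin-labelled total RNA of 12 spheroid samples. The deposited values are log2 levels for each probe set. RMA, Transcriptome Analysis Console 4.0 and Partek 7.0 were used, per the submitters' processing notes, which give no order of steps; array build, annotation and filters were not given in the sources used here. RMA brings arrays to a common distribution, so a shift shared by most genes would not be seen. No probe set's highest value was under 4.79, so low probe sets had been removed before deposit. The platform annotation gave 1 symbol for 11889 probe sets, several for 0 and none for 1192. The number of unused sample columns was 0.

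The software was limma 3.58.1 (lmFit, contrasts.fit, eBayes without trend) in R 4.3.3, with tables read by data.table (version 1.17.8). The model held culture day and preparation over all 12 arrays (6 residual degrees of freedom), was two-sided, and used Benjamini-Hochberg adjustment over 11889 probe sets. The sex difference used a day mean for each sex. Each ± is the model's standard error (median 0.09 for the second-week change). The number of arrays limits precision. With the preparation as a block, level differences between pools are taken out. The p-values rest on how far the changes between days differ from pool to pool, with culture and array noise included. They do not measure the spread between mice.

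Per the labels, each preparation was sampled at every day, which is why it was a block. Deviations of same-numbered arrays from their group means correlated at 0.22 (male) and 0.32 (female) between days 7 and 14, at 0.10 and 0.078 between days 1 and 7, and at 0.036 and 0.066 between days 1 and 14. On simulated data for the second-week comparison over 11889 probe sets, 53% of 100 changes of 0.5 and 91% of 100 changes of 1 on the log2 scale were recovered, with 10 false calls. The simulated noise was drawn independently for each probe set and array. Shifts shared by many probe sets of an array were not in it, so these figures need not hold for the real arrays.

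The rule for naming took, among probe sets that passed with 1 sign in all preparations, the 15 largest in each direction, the 10 largest in each direction that begin only in the second week, up to 3 members of each of 42 gene lists that passed (where none did, its largest change), and always Cps1, Abcc2, Abcb11, Slc10a1, Cyp3a11, Cyp2e1, Cyp1a2, Hnf4a and Alb. As no gene met the rule for changes that begin only in the second week, candidates were named in their place. The members and lists were chosen with earlier results of these data known. Alternatives changed the block, the arrays in the fit, the spread model, the normalization, the filter and the probe sets used.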

Additional observations from a re-analysis of the deposited data

Results flagged for a closer look

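Among 138 groups of 4 preparations (the second-week changes of 97 named genes and the medians of the gene lists), a preparation stood apart from the other 3 by Dixon's test (critical value 0.829) in 6. Chance gives this in about 1 of 20 groups. Nid1 changed by 0.18 in female preparation 1 and by 0.45 to 0.50 in the others. Epcam, an epithelial adhesion protein, changed by -0.61 in female preparation 2 and by 0.91 to 1.14 in the others, and did not pass over all 4. Among list medians, conjugating enzymes stood apart in female preparation 1 (0.15), ABC efflux transporters in male preparation 2 (-0.12), immediate early genes and heat shock proteins in male preparation 1 (0.13), and erythroid, platelet and neutrophil markers, with 3 measured, in male preparation 1 (-0.55).

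The list of integrated stress response and unfolded protein genes had a median change below 0 in both male and above 0 in both female preparations, a male minus female difference of -0.091. That difference was not tested.

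Probe sets without a gene symbol were outside the main comparison. When all 13081 probe sets were tested together in limma, 22 of these passed between days 7 and 14, 6 up and 16 down.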

How the results depend on the processing

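All 143 calls that could be refitted kept their direction in each alternative, and none of the 97 named genes reversed. For the 143 calls most of these alternatives could not have given another outcome. Each call had moved alike in every preparation, so the mean of those left after dropping 1 could not turn. Taking away the block or the day 1 arrays, or changing the spread model, leaves the mean change between days 7 and 14 as it was. The kept direction is therefore not separate support for the calls. The numbers past the threshold moved more. Without the replicate block, that is without pairing by preparation, 36 rose and 21 fell, 10 of the rises by at least 2-fold, and 21 had little first-week change. With the 8 arrays of days 7 and 14 alone the counts were 22 and 10, with 8 rises of at least 2-fold. With a day mean for each sex 51 rose, and 31 had little first-week change. With the trended and robust spread 210 rose and 224 fell, 25 and 16 by at least 2-fold, 222 had little first-week change, 16 met every condition for the second week and 1 the sex difference. With the probe sets without a symbol included, 20 fell by at least 2-fold. Without the test of the difference of the weeks, 54 met the remaining conditions. With 1 preparation left out the counts were 1 to 17 for rises, 1 to 12 for falls, 1 to 5 and 1 to 8 for those of at least 2-fold, and 0 to 6 for calls with little first-week change. Without the day 14 array of male preparation 1, an alternative added after seeing the data, they were 24 and 14, with 9 rises of at least 2-fold and 9 calls with little first-week change. The alternatives for calls with little first-week change were also added then. The causes of these shifts were not tested, other than that some use fewer arrays. Centring the arrays, a further quantile normalization, a stricter filter on low values and 1 probe set per symbol left each of these counts within 1.5 times.

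The number of arrays limits what could be called: the median standard error was 0.09, and 12 called genes had a day mean near the background.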
